A study of Mus musculus with 6 samples.

Results

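Proteins and RNAs pass between nucleus and cytoplasm through a set of carriers and pores, and the mRNAs that encode this machinery were examined in I1DN acute myeloid leukemia (AML) cells from mice treated with the DHODH inhibitor AG636. The 52 genes comprise 5 of the Ran cycle, 5 importin alphas, 11 of the importin beta family, 7 exportins and 24 nucleoporins, out of 54838 genes in the count table. The family was chosen by a measured value, the fold change of *Ranbp1*, which was taken as one of the strong decreases with AG636. The same comparison was therefore in view when the members were picked, and the fold changes and counts of members below are a description and no evidence about the family. All 52 genes had enough counts to be fitted. I1DN is a murine AML made by introducing IDH1R132H, DNMT3AR882H and NrasG12D into fetal liver hematopoietic cells on a C57BL/6 background. It is an engineered leukemia passaged by transplant, so the mice do not represent separately arisen tumors. Irradiated Ptprca recipients carried the leukemia and were given Vehicle (3 mice) or AG636 at 100 mg/kg by oral gavage b.i.d. (3 mice), and all 6 samples share the genotype and the transplant. The labels name bone marrow and spleen as sources without saying which sample came from which, and cells were sorted after 1 day of treatment. AG636 blocks dihydroorotate dehydrogenase, an enzyme of de novo pyrimidine synthesis, and the comparison asks how leukemic cells enriched for the cKit+CD11b- phenotype respond to that block.

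Traffic through the nuclear pore is driven by the small GTPase Ran, which is loaded with GTP on chromatin and hydrolyses it in the cytoplasm. Importins take up cargo in the cytoplasm and release it when they meet RanGTP in the nucleus, whereas exportins bind cargo together with RanGTP and release it after hydrolysis. The pore itself is built from nucleoporins arranged as outer and inner rings, a central channel rich in phenylalanine-glycine repeats, cytoplasmic filaments, a nuclear basket and membrane anchors. Ribosomal proteins, histones and ribosomal subunits are among the most abundant cargoes in growing cells.

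Promoter sequences were taken from RefSeq (GRCm38.p6), which matched 42 of the 52 genes. *Kpna1*, *Kpna3*, *Kpna6*, *Cse1l*, *Xpo4*, *Xpo7*, *Nup43*, *Nup85*, *Seh1l* and *Nup35* had no entry. Each window runs from 250 bases before to 50 bases after the transcript start. The E-box CACGTG, searched on both strands, was found in 8 of 42 members (19.0%), against 12.3% of the genes tested that had a promoter entry and 8.09% of all genes with one. The letters GCATGCG, part of the palindrome bound by NRF1, were found in 7 of 42 members (16.7%), against 7.83% of genes tested and 4.01% of all genes with a promoter entry. This motif and its reverse complement overlap in the run CGCATGCG and were counted once per gene. The ETS-type motif CCGGAAG was found in 7 members (16.7%) against 22.6% of genes tested, and the YY1-type motif AAGATGG in 4 (9.52%) against 8.93%. In the Ran cycle, *Ran*, *Ranbp1* and *Rcc1* held GCATGCG, and *Ran* also held CACGTG. Of the 15 members with an entry that passed the threshold downwards, 7 held one or both of the first 2 motifs, namely *Ran*, *Ranbp1*, *Xpo5*, *Nup188*, *Ipo4*, *Xpot* and *Nup93*. Members that did not pass held them too, with GCATGCG in *Rcc1*, *Nup107*, *Nup62* and *Nup50* and CACGTG in *Ipo7*, *Tnpo2* and *Nup54*. Among the 15 passing members with an entry, CACGTG was found in 5, GCATGCG in 3, CCGGAAG in 2 and AAGATGG in 1. Among the 27 that did not pass, the counts were 3, 4, 5 and 3 in the same order. The share holding either of the first 2 motifs was not counted among genes tested or among all genes past the threshold downwards. A link between motif and fall was not tested. The upstream stretches of 4 of the 7 passing members that held CACGTG or GCATGCG are shown, with only these 2 motifs in capitals. These examples from the Ran cycle, the exportins and the pore were picked after the matches were seen. They lie at chr5:129019906-129020068 (plus strand), chr16:18248733-18248944 (minus strand), chr17:46202561-46202781 (plus strand) and chr2:30286166-30286397 (plus strand), and end close to the start of the deposited gene model.
Ran: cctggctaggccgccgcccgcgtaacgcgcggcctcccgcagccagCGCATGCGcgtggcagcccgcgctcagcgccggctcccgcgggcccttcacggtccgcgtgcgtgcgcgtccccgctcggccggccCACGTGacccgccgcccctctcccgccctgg
Ranbp1: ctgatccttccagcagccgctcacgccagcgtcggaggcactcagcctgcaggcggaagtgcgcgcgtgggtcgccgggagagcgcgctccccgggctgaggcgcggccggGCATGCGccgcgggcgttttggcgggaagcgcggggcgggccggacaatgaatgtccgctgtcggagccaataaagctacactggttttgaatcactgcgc
Xpo5: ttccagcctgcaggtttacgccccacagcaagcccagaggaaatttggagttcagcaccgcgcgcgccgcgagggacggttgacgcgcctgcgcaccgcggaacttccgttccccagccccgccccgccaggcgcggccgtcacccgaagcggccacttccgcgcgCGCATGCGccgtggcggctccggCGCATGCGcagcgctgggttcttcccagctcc
Nup188: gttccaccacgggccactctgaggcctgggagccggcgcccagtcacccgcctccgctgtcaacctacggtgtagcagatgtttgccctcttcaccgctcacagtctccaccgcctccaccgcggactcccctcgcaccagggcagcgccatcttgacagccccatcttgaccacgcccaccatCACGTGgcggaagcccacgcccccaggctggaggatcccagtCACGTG
*Xpo5* held 2 copies of the longer palindrome and *Nup188* 2 copies of CACGTG. The *Nup188* stretch also holds the YY1-type motif AAGATGG, read on the other strand and left in small letters. A match of letters describes the sequence and does not show binding.

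Totals ranged from 4634963 to 7906589 counts per sample, and the smallest level that 3 counts can show was 0.392 to 0.637 CPM, a limit from counting error alone. CPM are counts scaled by the usual factor to the library size after TMM normalization. Libraries were made from the 3′ end of polyadenylated transcripts, so that counts follow the number of transcript ends and not their length. Of the immature myeloid markers, *Kit* had 1317 counts and *Cd34* 5023 in all 6 samples together, while *Flt3* had 54 and was not tested. The 7 genes of this list summed to between 1960 and 3710 CPM with Vehicle and between 1530 and 3060 with AG636. The sum was largely *Mpo*, with means of 2270 and 1450 CPM. *Mpo* was at 63.9% of its Vehicle mean, *Myb* at 102%, *Kit* at 111%, *Cd34* at 136% and *Spi1* at 159%, with no call for these. Only *Ptprc* passed the threshold, upwards, and it encodes CD45, which is not specific to immature cells. The 8 markers of CD11b+ and mature myeloid cells summed to between 955 and 2300 CPM with Vehicle and between 2710 and 5580 with AG636, and 5 of them passed the threshold upwards, *Itgam* (the gene of CD11b) among them. The 6 erythroid markers summed to between 945 and 1990 CPM and between 721 and 1590 CPM, and 2 passed downwards. The 3 megakaryocyte markers summed to between 735 and 1150 CPM and between 1020 and 1660 CPM, and 2 passed upwards. The 8 markers of B cells and of T and NK cells had at most 23 counts each. The 8 cycling markers summed to between 3040 and 3180 CPM with Vehicle and between 2820 and 2970 with AG636, and 0 of 8 passed the threshold (edgeR; 1 had an unadjusted p under 0.05, *Mcm2*, which was lower). The part of these marker shifts in the levels of transport genes was not tested. In bulk samples, fewer cells of a type and less RNA per cell cannot be told apart.

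Transport and pore mRNAs were lower with AG636 across nearly the whole family. Of the 52 genes, 50 had a log2 fold change below 0, the exceptions being *Xpo7* and *Kpna6*, and *Aaas* was above 0 (0.03) when counts were scaled by library size alone. The median was -0.40, against 0.03 for all 11092 genes tested, of which 47.7% were below 0. Together the 52 genes held 8755, 7733 and 8182 CPM in the 3 Vehicle mice and 5938, 5890 and 5383 CPM in the 3 AG636 mice, so the summed level with AG636 was 69.8% of that with Vehicle. Without *Ranbp1*, by which the family was chosen, the summed level was 71.4% and the median log2 fold change -0.39. In the quasi-likelihood fit of edgeR over all genes, 18 members passed an adjusted p (Benjamini-Hochberg) of 0.05 downwards, where 11.0% of all genes tested did and 21.3% passed in either direction. Upwards 0 members passed, where 10.3% of all genes did. No member had an unadjusted p under 0.05 upwards in edgeR, DESeq2 or limma-voom (0 in each), and 34 did downwards in edgeR. The share of all genes with such a p was not counted, so these counts have no measure beside them. The 3 AG636 values lay below all 3 Vehicle values for 34 members, where this held for 20.6% of all genes, and above them for 0, where it held for 20.5%. Members were more abundant than most genes, with a Vehicle mean from 10.6 CPM (*Nup98*) to 1640 CPM (*Ran*). Among the 8147 genes of that range, 13.8% passed downwards and 8.81% upwards, the AG636 values lay below all Vehicle values for 25.2%, and the median log2 fold change was -0.04. Leaving out AG636 replicate 3 left 9 members past the threshold, while the count over all genes went from 1222 to 452. With library size alone as the scaling, 913 genes passed downwards and 1483 upwards, against 1222 and 1146 with TMM. An adjusted p under 0.01 left 5 members, and 325 of all genes tested downwards.

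**Figure D1:**
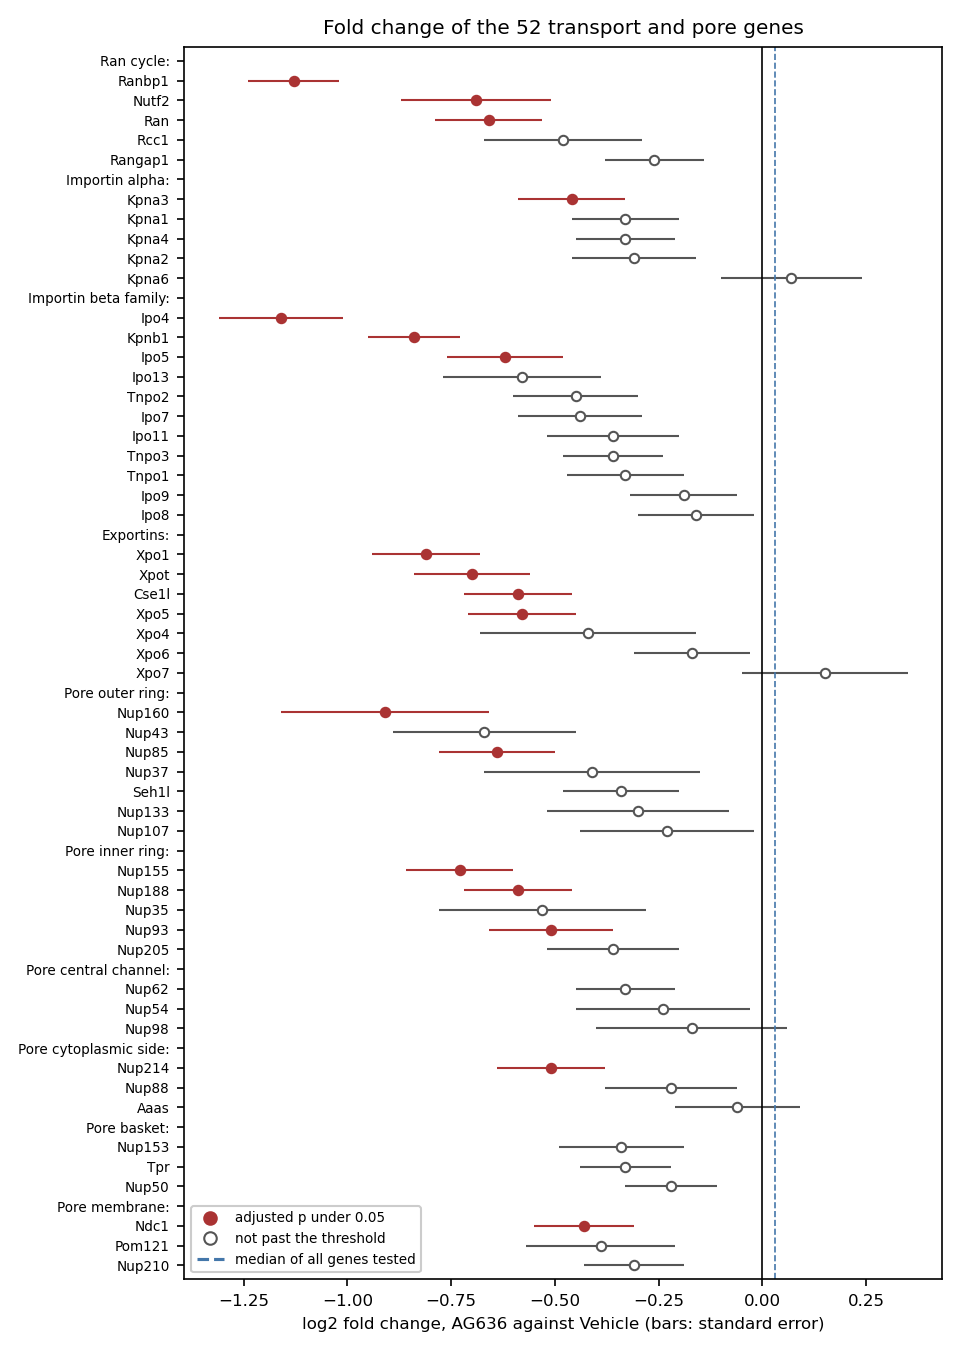
The log2 fold change of each of the 52 genes with AG636 against Vehicle is plotted on the x axis, with genes on the y axis by role and bars for the standard error. Filled points passed an adjusted p of 0.05; 50 of 52 points lie left of 0 and the filled ones are the 18 members past the threshold.

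**Figure D2:**
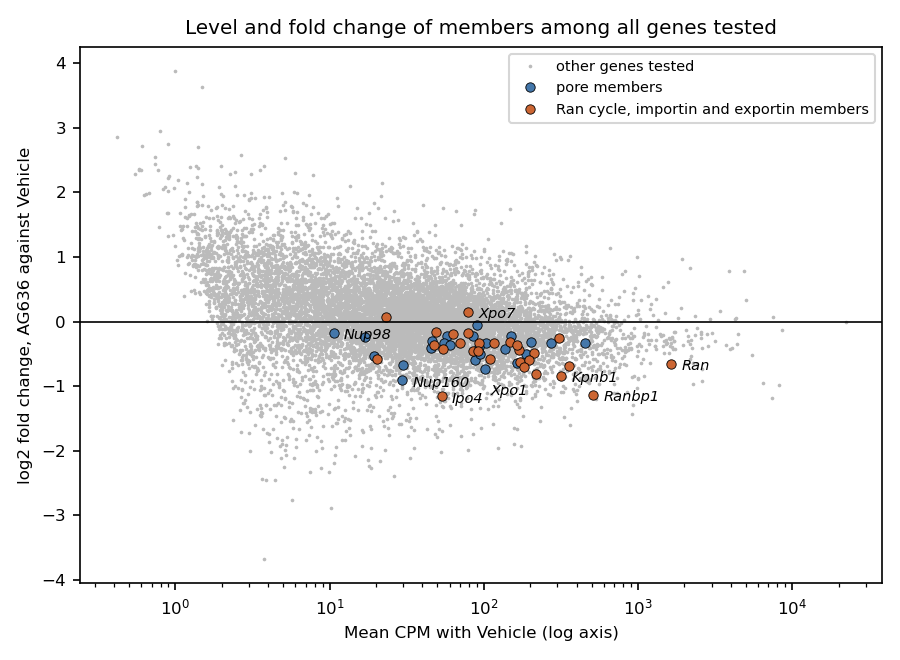
The x axis is the mean CPM with Vehicle on a log scale and the y axis the log2 fold change with AG636, for the 52 members (large points) and the other genes tested (small gray points). Members sit between 10.6 and 1640 CPM, and apart from *Xpo7* and *Kpna6* all lie below the line at 0.

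Ran cycle genes, *Ranbp1* among them, had a median of -0.66, and 3 of 5 passed the threshold. The median was -0.53 without AG636 replicate 3. *Ranbp1*, whose product binds RanGTP and helps RanGAP to dismantle export complexes, had 531, 525 and 475 CPM in the Vehicle mice and 251, 237 and 214 CPM in the AG636 mice. The groups lay far apart, and the mean with AG636 was 45.8% of that with Vehicle (log2 fold change -1.13, standard error 0.11). *Ranbp1* lies on chromosome 16 from 18239784 to 18248732 of mm10 and ranked 259 by log2 fold change and 7 by p among all genes tested. *Ran*, the GTPase itself, on chromosome 5 from 129020069 to 129024323, had 1720, 1340 and 1870 CPM with Vehicle and 1120, 1010 and 989 CPM with AG636. It was the most abundant member, and its groups did not overlap although the Vehicle mice spread by 278 CPM (SD, n = 3; log2 fold change -0.66, standard error 0.13). *Nutf2*, which returns RanGDP to the nucleus, had 423, 362 and 286 CPM with Vehicle and 255, 241 and 168 CPM with AG636. Its log2 fold change of -0.69 (standard error 0.18) was no longer past the threshold without Vehicle replicate 1 (-0.57), Vehicle replicate 2 (-0.69) or AG636 replicate 3 (-0.53). The enzymes that switch Ran between its states did not pass the threshold. *Rcc1*, the exchange factor on chromatin, had 261, 165 and 214 CPM with Vehicle and 156, 182 and 120 CPM with AG636, with overlapping groups (log2 fold change -0.48, standard error 0.19). *Rangap1*, the GTPase activator, had 293, 331 and 296 CPM with Vehicle and 259, 228 and 281 CPM with AG636. Its groups did not overlap, but the log2 fold change of -0.26 (standard error 0.12) was not past the threshold. The ratio of *Ran* to *Ranbp1* counts was 3.25, 2.54 and 3.94 in the Vehicle mice and 4.46, 4.24 and 4.63 in the AG636 mice. The family was chosen by the fall of *Ranbp1*, so this ratio carries that choice and is a description only.

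Among the importin alphas, the adaptors that read the classical nuclear localization signal, 1 of 5 passed the threshold and the median was -0.33. *Kpna3* had 89.7, 83.8 and 82.7 CPM with Vehicle and 59.0, 70.5 and 56.8 CPM with AG636. The groups did not overlap (log2 fold change -0.46, standard error 0.13). The threshold was not met without Vehicle replicate 1 (-0.44), Vehicle replicate 2 (-0.48), AG636 replicate 1 (-0.43) or AG636 replicate 3 (-0.40), nor with library size alone (-0.37) or the replicate number as a block (-0.46). *Kpna6* was the one importin alpha that was not lower, with 25, 20 and 24.9 CPM with Vehicle and 24.9, 23.7 and 24.4 CPM with AG636. Its log2 fold change of 0.07 was smaller than its standard error of 0.17, and was -0.05 without Vehicle replicate 2. *Kpna1*, *Kpna2* and *Kpna4* had log2 fold changes from -0.33 to -0.31, and of these *Kpna2* had overlapping groups. *Kpna2* made up 35% ± 4.17 of the importin alpha sum with Vehicle and 35.4% ± 1.96 with AG636 (SD, n = 3), whereas *Kpna6* made up 5.58% ± 0.89 and 7.26% ± 0.397.

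All 11 genes of the importin beta family had a log2 fold change below 0, with a median of -0.44, and 3 passed the threshold. *Ipo4*, which carries histones and ribosomal proteins, had the lowest fold change of all members. It lies on chromosome 14 from 55625400 to 55635957 and had 57.4, 51.3 and 51.0 CPM with Vehicle and 22.7, 24.1 and 24.4 CPM with AG636. Within each group the mice were close together, and the mean with AG636 was 44.6% of that with Vehicle (log2 fold change -1.16, standard error 0.15). *Kpnb1*, importin beta 1, the carrier that pairs with the importin alphas, lies on chromosome 11 from 97159714 to 97187881. It had 322, 312 and 320 CPM with Vehicle, the tightest group of any member relative to its level (coefficient of variation 1.56%), and 171, 191 and 170 CPM with AG636. The log2 fold change was -0.84 (standard error 0.11), so that the carrier was at 55.8% of its Vehicle mean while the importin alphas together were at 79.9%. *Ipo5*, a carrier of ribosomal proteins and histones, had 177, 169 and 167 CPM with Vehicle and 121, 122 and 90.0 CPM with AG636 (log2 fold change -0.62, standard error 0.14, and -0.49 and not past the threshold without AG636 replicate 3). *Ipo8* was at the other end of the group, with 47.2, 46.8 and 52.4 CPM with Vehicle and 44.0, 40.2 and 46.8 CPM with AG636. The highest AG636 value lay at the lowest Vehicle value, and the log2 fold change of -0.16 was close to its standard error of 0.14. *Ipo7*, its closest relative in the family, had a log2 fold change of -0.44 (standard error 0.15), and the ratio of *Ipo7* to *Ipo8* was 3.45 ± 0.415 with Vehicle and 2.88 ± 0.492 with AG636 (SD, n = 3). The other 6 genes, *Ipo9*, *Ipo11*, *Ipo13*, *Tnpo1*, *Tnpo2* and *Tnpo3*, had log2 fold changes from -0.58 (*Ipo13*) to -0.19 (*Ipo9*). Of these, *Tnpo3*, which imports splicing factors of the SR family, had a log2 fold change of -0.36 and *Tnpo1*, which imports hnRNP proteins, one of -0.33.

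Of the 7 exportins, 4 passed the threshold and the median was -0.58. *Xpo1*, which exports proteins with a leucine-rich signal as well as ribosomal subunits, lies on chromosome 11 from 23256041 to 23298249. It had 246, 198 and 212 CPM with Vehicle and 126, 115 and 134 CPM with AG636, with no overlap (log2 fold change -0.81, standard error 0.13). *Xpot*, the tRNA exportin, had 206, 150 and 188 CPM with Vehicle and 114, 117 and 103 CPM with AG636 (log2 fold change -0.70, standard error 0.14). *Cse1l*, which returns importin alpha to the cytoplasm, had 217, 174 and 192 CPM with Vehicle and 138, 121 and 129 CPM with AG636 (log2 fold change -0.59, standard error 0.13). These 3 exportins each stayed past the threshold when any one mouse was left out. *Xpo5*, the exporter of microRNA precursors, had 113, 96.8 and 119 CPM with Vehicle and 69.7, 75.7 and 74.6 CPM with AG636. The log2 fold change of -0.58 (standard error 0.13) was -0.55 without AG636 replicate 1, when it was not past the threshold. *Xpo7* stood apart with 53.7, 94.6 and 88.0 CPM with Vehicle and 87.1, 79.2 and 95.5 CPM with AG636. One Vehicle mouse was low, and the log2 fold change of 0.15 (standard error 0.20) became -0.08 without it (Vehicle replicate 1). *Xpo4* and *Xpo6* had log2 fold changes of -0.42 and -0.17 with overlapping groups, and leaving out 1 mouse gave from -0.70 to -0.19 for *Xpo4*. The summed exportin level was 979, 832 and 940 CPM with Vehicle and 638, 636 and 639 CPM with AG636.

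**Figure D3:**
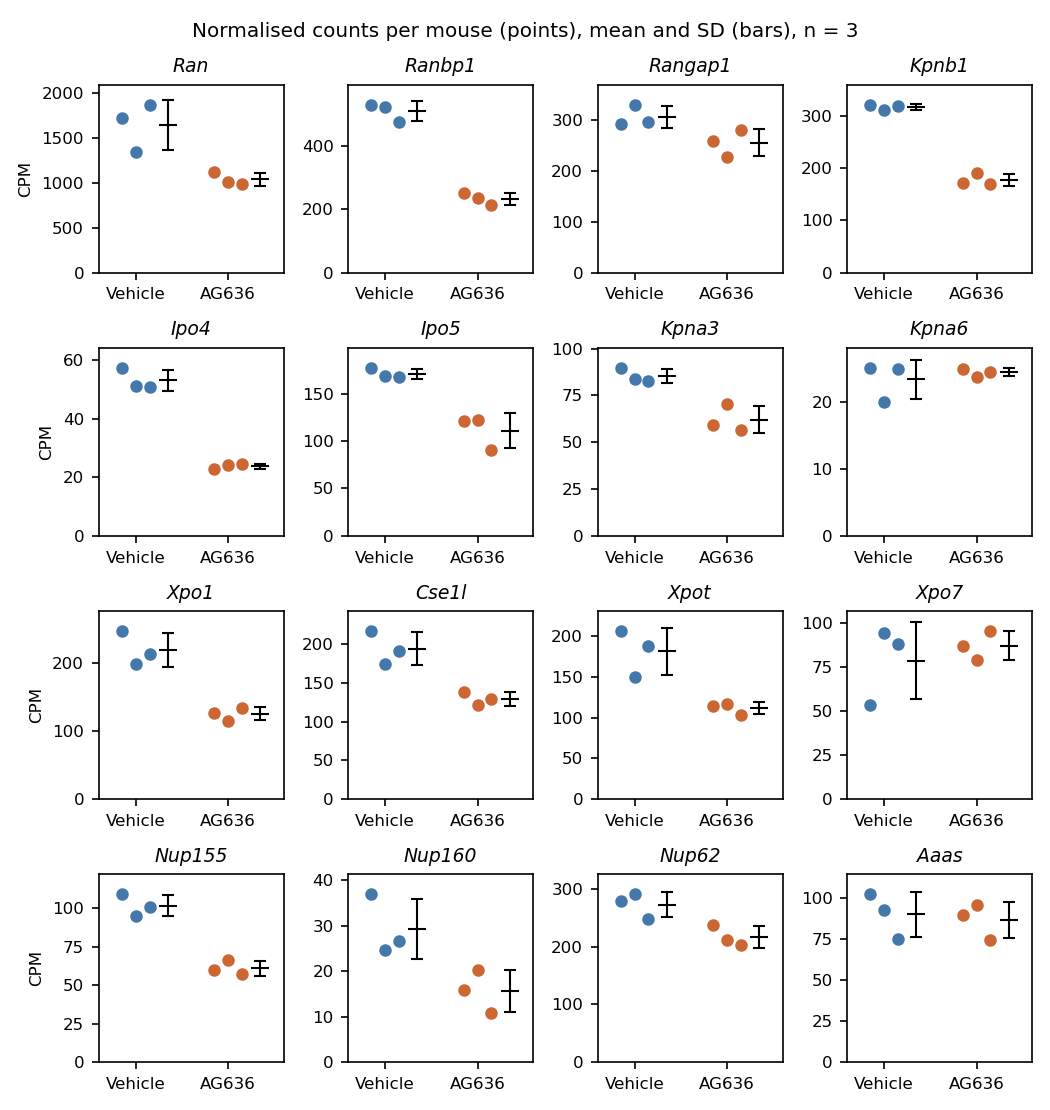
Each panel gives the CPM of one gene (y axis, from 0) in the 3 Vehicle and the 3 AG636 mice as points, with the mean and SD beside them. *Ranbp1*, *Kpnb1*, *Ipo4* and *Xpo1* show separated groups, while *Kpna6*, *Xpo7* and *Aaas* show overlapping ones.

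All 24 nucleoporin genes had a log2 fold change below 0, with a median of -0.35, and 7 passed the threshold. Their summed level with AG636 was 76.7% of that with Vehicle, and that of the 28 Ran cycle, importin and exportin genes was 66.6%. In the outer ring, the scaffold also called the Y complex, 2 of 7 genes passed and the median was -0.41. *Nup160* had 36.9, 24.6 and 26.7 CPM with Vehicle and 15.9, 20.2 and 10.9 CPM with AG636. It had the lowest fold change of the pore genes (-0.91, standard error 0.25) but also low counts. It was not past the threshold without Vehicle replicate 1 (-0.73), Vehicle replicate 2 (-1.04), AG636 replicate 1 (-0.92) or AG636 replicate 3 (-0.70). *Nup85* had 191, 141 and 164 CPM with Vehicle and 116, 107 and 93.8 CPM with AG636 (log2 fold change -0.64, standard error 0.14, and -0.56 and not past the threshold without AG636 replicate 3). *Nup107* had 72.7, 47.6 and 51.4 CPM with Vehicle and 53.3, 56.5 and 36.4 CPM with AG636, with overlapping groups (log2 fold change -0.23, standard error 0.21). The value was -0.04 without Vehicle replicate 1 and -0.06 without AG636 replicate 3. *Nup37*, *Nup43*, *Nup133* and *Seh1l* lay between, from -0.67 (*Nup43*) to -0.30 (*Nup133*). None of them passed in the main fit, but *Nup43* was past the threshold with DESeq2, with limma-voom and without AG636 replicate 1.

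In the inner ring 3 of 5 genes passed the threshold, with a median of -0.53. *Nup155*, on chromosome 15 from 8109273 to 8161247, had 109, 95.2 and 101 CPM with Vehicle and 59.7, 66.4 and 57.2 CPM with AG636. The groups were well separated (log2 fold change -0.73, standard error 0.13), and this was the one pore gene that stayed past the threshold when any one mouse was left out. *Nup188* had 92.7, 85.4 and 86.7 CPM with Vehicle and 61.4, 62.7 and 51.7 CPM with AG636 (log2 fold change -0.59, standard error 0.13, and -0.51 and not past the threshold without AG636 replicate 3). *Nup93*, the linker of the ring, had a log2 fold change of -0.51 (standard error 0.15) that was not past the threshold without Vehicle replicate 1 (-0.44), Vehicle replicate 2 (-0.51), AG636 replicate 1 (-0.51) or AG636 replicate 3 (-0.41), nor with library size alone (-0.42). *Nup205*, the paralog of *Nup188*, had 67.2, 53.5 and 58.9 CPM with Vehicle and 54.6, 45.2 and 40.0 CPM with AG636. The highest AG636 mouse lay above the lowest Vehicle mouse, and the log2 fold change was -0.36 (standard error 0.16). *Nup35* had a log2 fold change of -0.53 (standard error 0.25) with overlapping groups.

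Genes of the central channel, the basket and the cytoplasmic side had medians from -0.33 to -0.22, and that of the cytoplasmic side was -0.38 without Vehicle replicate 2 and -0.13 without AG636 replicate 3. *Nup62*, the main repeat protein of the channel, had 279, 290 and 248 CPM with Vehicle and 238, 211 and 202 CPM with AG636. Its groups did not overlap, and the log2 fold change was -0.33 (standard error 0.12) and not past the threshold. *Nup98* was the least abundant member, with 11.4, 10.5 and 9.82 CPM with Vehicle and 11.0, 8.87 and 8.31 CPM with AG636 (log2 fold change -0.17, standard error 0.23). *Nup54* had a log2 fold change of -0.24 with overlapping groups. On the cytoplasmic side, *Nup214* had 102, 99.7 and 80.0 CPM with Vehicle and 67.3, 64.5 and 66.6 CPM with AG636. The difference was -0.51 on the log2 scale (standard error 0.13), and it was not past the threshold in any of the 6 fits that left out one mouse except the one without Vehicle replicate 3 (values without Vehicle replicate 1 and 2, -0.46 and -0.47, and without AG636 replicate 1, 2 and 3, -0.52, -0.49 and -0.51). *Aaas*, which encodes ALADIN, had 102, 92.7 and 74.8 CPM with Vehicle and 89.4, 95.5 and 74.2 CPM with AG636. The groups covered the same range, and the log2 fold change of -0.06 (standard error 0.15) was 0.02 without Vehicle replicate 1 and 0.04 without AG636 replicate 3. *Nup88* had a log2 fold change of -0.22 (standard error 0.16).

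In the nuclear basket 0 of 3 genes passed the threshold (edgeR, with 2 at an unadjusted p under 0.05). The AG636 mice lay below the Vehicle mice for all 3, where this held for 20.6% of all genes tested. It held for 25.2% of genes in the members' range of level. *Nup153*, which anchors the basket, had 123, 98.6 and 91.3 CPM with Vehicle and 82.0, 90.9 and 74.0 CPM with AG636 (log2 fold change -0.34, standard error 0.15). *Nup50* had 147, 156 and 146 CPM with Vehicle and 123, 130 and 133 CPM with AG636 (log2 fold change -0.22, standard error 0.11). *Tpr*, the filament protein of the basket and the third most abundant member, had a log2 fold change of -0.33 (standard error 0.11). Of the membrane nucleoporins 1 of 3 passed. *Ndc1* had 130, 144 and 140 CPM with Vehicle and 113, 96.1 and 98.2 CPM with AG636 (log2 fold change -0.43, standard error 0.12). The threshold was not met without Vehicle replicate 2 (-0.41), Vehicle replicate 3 (-0.44), AG636 replicate 2 (-0.39) or AG636 replicate 3 (-0.40), nor with library size alone (-0.34) or the replicate number as a block (-0.43). *Nup210* had 205, 218 and 180 CPM with Vehicle and 167, 150 and 170 CPM with AG636, with no overlap (log2 fold change -0.31, standard error 0.12). *Pom121* had a log2 fold change of -0.39 (standard error 0.18) with overlapping groups.

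**Figure D4:**
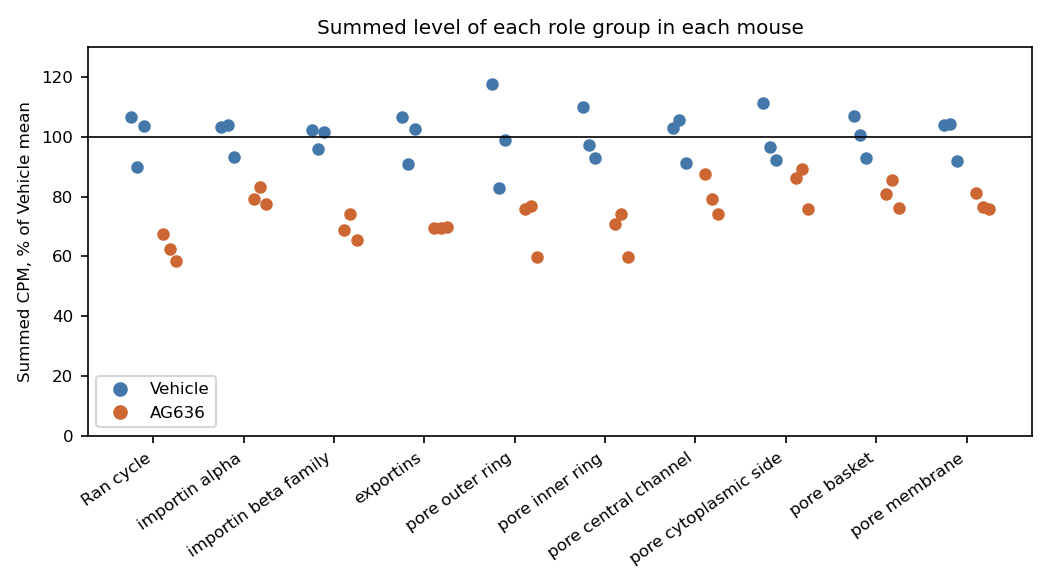
For each role group on the x axis, the y axis gives the summed CPM of its members in each mouse as a percentage of the Vehicle mean. The AG636 mice lie below the Vehicle mice in every group, with Ran cycle genes at 62.7% of the Vehicle mean and cytoplasmic-side genes at 83.8%.

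Counts of some members depend on how reads in shared positions were assigned, and the strand setting is not given in the sources used here. The last 500 bases of the *Pom121* transcript were identical to sequence of *Nsun5*, which overlaps it on the opposite strand and had 784 counts against 2730. *Ranbp1* overlaps *Trmt2a* on the opposite strand over 54 bases, with 2286 counts against 12733. *Rcc1* overlaps the noncoding *Snhg3* on the same strand over 107 bases, with 6451 counts for *Snhg3* and 6005 for *Rcc1*. *Nup214* overlaps *Fam78a* and *Nup88* overlaps *Rabep1* on the opposite strand, with 679 and 1628 counts for the partners against 2700 and 2573. *Nup35* overlaps *Dusp19* on the same strand over 49 bases, with 483 counts against 556. The last 500 bases of *Kpna2* match *Gm10184* over 494 bases with 100% identity, and that copy had 0 counts. *Nutf2* matches *Nutf2-ps1* over all 500 bases, with 28 counts in the copy against 9766 in *Nutf2*.

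Outside these 52 genes, 43 further genes of nuclear transport and RNA export were listed by role, of which 39 could be fitted. Of these, 34 had a log2 fold change below 0, 11 passed the threshold downwards and 0 upwards (edgeR; 0 had an unadjusted p under 0.05 upwards, and 0 passed upwards in DESeq2 or limma-voom), where 11.0% and 10.3% of all genes did. The median was -0.28. The count downwards was 6 without Vehicle replicate 1, 5 without Vehicle replicate 2, 5 without AG636 replicate 1 and 3 without AG636 replicate 3. Over all genes the count downwards went from 1222 to 701, 692, 630 and 452 in the same fits. *Rangrf*, whose product binds Ran and releases its nucleotide, had 124, 92.5 and 71.9 CPM with Vehicle and 29.7, 38.6 and 24.0 CPM with AG636. It fell by 1.65 on the log2 scale (standard error 0.23; edgeR, adjusted p = 0.0032), a lower value than that of any member. *Ranbp2*, which encodes the large nucleoporin of the cytoplasmic filaments, had 83.4, 77.4 and 76.1 CPM with Vehicle and 52.7, 57.3 and 46.8 CPM with AG636. It fell by 0.60 on the log2 scale (edgeR adjusted p = 0.0141, standard error 0.13), and was not past the threshold without AG636 replicate 3 (-0.52).

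Among 16 mRNA export genes 5 passed the threshold downwards and 0 upwards. *Ddx39*, an RNA helicase that loads the export receptor, had 327, 270 and 241 CPM with Vehicle and 138, 180 and 123 CPM with AG636. It fell by 0.92 (edgeR adjusted p = 0.00685, standard error 0.17), and its exons overlap those of *Adgre5* on the opposite strand (2010 counts against 7229). *Thoc5*, a subunit of the THO complex that couples transcription to export, had 83.1, 76.5 and 68.7 CPM with Vehicle and 52.2, 50.7 and 52.7 CPM with AG636. It fell by 0.55 (edgeR adjusted p = 0.0168, standard error 0.13), a call lost without Vehicle replicate 1 (-0.50) or 2 (-0.56) and without AG636 replicate 1 (-0.56) or 3 (-0.56). The receptor gene *Nxf1* itself had 241, 243 and 224 CPM with Vehicle and 248, 204 and 229 CPM with AG636, and differed by -0.06 on the log2 scale (edgeR adjusted p = 0.76, standard error 0.12). *Nxf1* was named after its values were seen. In the third list, 3 of 7 genes of other RNA and ribosome export passed downwards. *Ltv1*, which takes part in maturation and export of the small ribosomal subunit, had 82.2, 79.3 and 68.1 CPM with Vehicle and 50.3, 49.7 and 40.0 CPM with AG636, a fall of 0.72 (edgeR adjusted p = 0.0113, standard error 0.15). *Ncbp1*, the large subunit of the nuclear cap-binding complex, had 142, 128 and 140 CPM with Vehicle and 101, 90.9 and 93.1 CPM with AG636. It fell by 0.52 (edgeR adjusted p = 0.0142, standard error 0.12, and -0.51 and not past the threshold without AG636 replicate 3), and overlaps *Tstd2* on the opposite strand (1940 counts against 3857). *Nup58*, a channel nucleoporin listed as *Nupl1* in the annotation, had 0 counts in all samples, while *Gm49336*, which overlaps it on the same strand, had 2963.

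**Figure D5:**
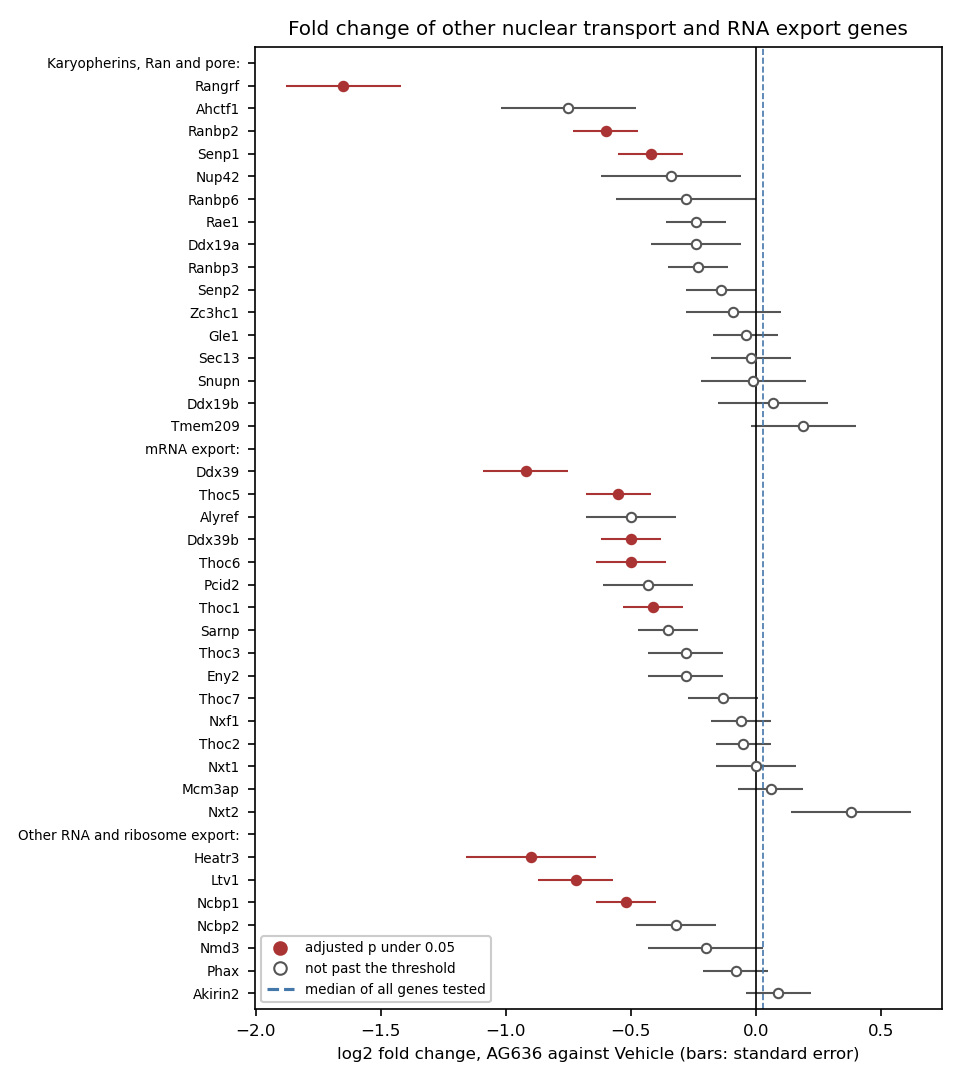
The log2 fold change with AG636 against Vehicle (x axis, bars for the standard error) is plotted for the 39 fitted genes of nuclear transport and RNA export outside the 52 members, by list. Filled points passed an adjusted p of 0.05, and the 11 filled points all lie left of 0, with *Rangrf* at -1.65.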

How the data were processed

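Total RNA from sorted I1DN cells of 3 Vehicle and 3 AG636 mice was made into QuantSeq 3′ libraries. The deposited table holds raw counts per gene, which the authors produced; the submitters' processing notes name cutadapt 1.9.1, HISAT2 2.0.4 and featureCounts of Subread 1.5.0-p3 on mm10. Strand setting and treatment of multiply mapped reads are not given in the sources used here. Columns were matched to mice by the labels, and no column was left unused (0).

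Genes were kept by filterByExpr (minimum count 10, total 15), which left 11092 of 54838, and fitted with edgeR 4.0.16 in R 4.3.3 (TMM, quasi-likelihood test, Benjamini-Hochberg adjustment over all genes, threshold 0.05). Standard errors were derived from the fold change and its F statistic. DESeq2 1.42.0 and limma 3.58.1 (voom) served as alternatives, with other scalings, filters, a replicate block and each mouse left out. The test was checked on simulated data with 200 of 10953 fitted genes changed. That share was smaller than the 21.3% of genes that passed in the real data, and recovery in the real data can differ. In the simulation edgeR recovered 28% of genes changed by 0.6 on the log2 scale and 75% of those changed by 1. It also called 12 unchanged genes. A gene not past the threshold may therefore still differ. The mice received cells of one leukemia, so p-values measure the spread between recipients.

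The members and gene lists were chosen with earlier results of these data known. Values in every sample are given for *Ranbp1*, *Ran*, *Kpnb1* and *Xpo1*, the members of each role group with the lowest and highest log2 fold change, the 12 members with the lowest p, any member called higher, and at most 6 called other transport genes in each direction; *Nutf2*, *Rcc1*, *Nxf1* and *Gm49336* were added after their values were seen. Symbols came from the annotation (54723 IDs matched). Promoters are those of RefSeq (GRCm38.p6). The planned protein features were not analysed here.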

Additional observations from a re-analysis of the deposited data

How the results depend on the processing

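The number of members past the threshold downwards was 18. It was 5 at an adjusted p under 0.01, and leaving out 1 mouse gave from 9 (without AG636 replicate 3) to 21 (without Vehicle replicate 3). Over all genes the count downwards was 1222, and 325 at an adjusted p under 0.01. It was 452 without AG636 replicate 3 and 1298 without Vehicle replicate 3. For the members, DESeq2 gave 22, limma-voom 19, library size alone 15, no low count filter 22 and a minimum of 10 counts in every sample 19. *Ran*, *Ranbp1*, *Kpnb1*, *Ipo4*, *Cse1l*, *Xpo1*, *Xpot* and *Nup155*, 8 genes in all, were past the threshold in all these fits apart from the stricter adjusted p. Some members passed only outside the main fit. *Nup43* passed in 5 of 13 alternatives, *Ipo7*, *Tnpo2* and *Tnpo3* in 3 each, DESeq2 among them. *Rcc1*, *Kpna2*, *Tnpo1*, *Nup62* and *Tpr* passed in 1 each. The other transport genes past the threshold numbered 11, with 2 at an adjusted p under 0.01. Leaving out 1 mouse gave from 3 (without AG636 replicate 3) to 13 (without AG636 replicate 2), where 452 and 1171 of all genes passed downwards. The median log2 fold change of the members was -0.40, was -0.31 with library size alone, where the median of all genes was 0.12, and ran from -0.49 to -0.33 when 1 mouse was left out. With library size alone the importin alpha median was -0.24 and the importin beta median -0.35. Leaving out 1 mouse gave medians from -0.72 to -0.53 for the Ran cycle, from -0.49 to -0.35 for importin beta, from -0.61 to -0.30 for the outer ring, from -0.31 to -0.12 for the central channel and from -0.38 to -0.13 for the cytoplasmic side. Among members not past the threshold, leaving out 1 mouse gave from -0.37 to -0.04 for *Nup107*, from -0.52 to -0.08 for *Nup133*, from -0.69 to -0.20 for *Nup37* and from -0.70 to -0.19 for *Xpo4*. The sign turned for 3 members. *Kpna6* ran from -0.05 (without Vehicle replicate 2) to 0.11 when 1 mouse was left out, *Xpo7* from -0.08 (without Vehicle replicate 1) to 0.30, and *Aaas* from -0.20 to 0.04 (without AG636 replicate 3), with 0.02 without Vehicle replicate 1 and 0.03 with library size alone. The cause of these shifts was not tested. Counts over all genes under the alternatives and the comparison with genes in the members' range of level were chosen after seeing the data. That range held 8147 of the 11092 genes tested and was not matched to the members, whose median level lay above that of 78.6% of genes tested.

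Mice with the same replicate number did not deviate together (correlations of -0.06, -0.18 and 0.23, and 1 of 6 samples correlated best with its own number). No pairing by number was seen, but with 3 mice a group this check cannot exclude handling shared by number. With the replicate block, 17 members and 9 other transport genes passed downwards, where 1046 of all genes did, against 1222 without it. At this depth and with 3 mice a group, the median standard error over all genes was 0.20 on the log2 scale.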
